A study of Pimephales promelas with 27 samples.

Results

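Among 15208 non-control probes of a fathead minnow array, 150 were picked because their signal in control ovary explants was level between 6 and 9 h of culture and lower at 12 h. Probes had to be well above background on all 27 arrays, which left 10155. The mean of the 6 within-group SDs had to be under 0.6, which left 8426, and the control means at 6 and 9 h had to lie within 0.2 of each other, which left 3558. Of these, 1429 had a lower control mean at 12 h than at 9 h, and the 150 with the largest difference were taken. Every level below is the log2 of a probe's signal over the 75th percentile of the non-control probes of its array, so a difference of 1 is a 2-fold change relative to that percentile. Because the control means chose the probes, the control values below are a description and carry no test.

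The series measured total RNA from pieces of ovary of female fathead minnow (Pimephales promelas, a small freshwater fish used in toxicology), kept in culture as explants. The treated arm received dihydrotestosterone (DHT) at 1e-06 M and the control arm did not. No genotype, strain or fish age is given for either arm, and what else the medium of the controls held is not stated in the labels. Each array carried 1 sample. At 6 h there were 4 controls and 5 DHT samples, at 9 h 5 of each, and at 12 h 4 of each. Whether each explant was from its own fish is not stated in the labels, and the p-values therefore speak only of the spread among the samples at hand, which may be technical. An explant holds oocytes, follicle cells, stroma and blood cells together. In such bulk RNA, fewer cells of a type and less RNA per cell cannot be told apart.

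DHT is a potent androgen that vertebrate enzymes make from testosterone and that cannot be converted to oestrogen by aromatase. It acts through the androgen receptor, a transcription factor that enters the nucleus when bound. In the ovary of bony fishes, androgens are made by follicle cells on the way to oestradiol. Tissue taken into culture loses its blood supply and its pituitary input, and control explants held for the same time are the reference for the hormone. None of the 15208 probe names matched any of the 64593 entries of the fathead minnow reference table, so probes are given by their IDs with no gene or role, and the labelled tissue could not be checked against ovary markers.

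The arrays lay on 7 slides scanned on 3 days. The 6 and 9 h arrays shared slides 1 to 4 and 1 scan day, while the 12 h arrays lay on slides 5 to 7, scanned on 2 other days. Slide, scan day and the 12 h time point therefore cannot be told apart in any comparison with 12 h. Brightness, given as the 75th percentile of an array's processed signal, lay between 2581 and 5709 at 6 and 9 h and between 921 and 3418 at 12 h. The 3 dimmest arrays of the series were those of slide 5. No non-control probe was saturated. Precision is limited by the number of arrays.

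The control arrays give the pattern that chose the probes. The fall from 9 to 12 h in controls ran from 0.48 to 1.58 on the log2 scale over the 150 probes, with a median of 0.62, or 1.53-fold. It was over 0.5 for 136 probes and over 1 for 8. Between 6 and 9 h their control differences ran from -0.18 to 0.20, with a median of 0.08. The threshold cut through a dense run of probes. UF_Ppr_AF_105719 and UF_Ppr_AF_108310, the last taken, fell by 0.48 and 0.48 in controls, and UF_Ppr_AF_119048 and UF_Ppr_AF_106192, the first left out, fell by 0.48 and 0.48. The 150 are therefore the steep end of a continuous range. In 36 probes every control array at 12 h lay below every control array at 9 h, against 2.57% of the 13714 probes tested, and in 27 also below every control array at 6 h, against 0.664%. The rule used these arrays, so nothing is read from these counts.

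The probes were also compared by signal, name and place on the array. Their mean signal over the arrays ran from -5.44 to 5.56 with a median of -0.48. The median of the 8146 other tested probes that passed the signal and spread filters was -0.89. These signals also depend on each probe's sequence and are not amounts of transcript. Contig names were carried by 134 of the 150 (89.3%), compared with 85.4% of the 10155 with signal on all arrays, 15 had a sequence number and 1 was another clone name. The 134 contig numbers were all different. Another 59 tested probes shared a contig number with 1 of 38 selected probes. In the DHT arrays the median of these 59 was 0.32 higher at 12 h than at 9 h, with 19 of them lower. Over all tested probes the median was 0.12 higher, with 40.4% lower. Whether probes with the same contig number read the same transcript is not stated in the labels. The upper rows of the array, 1 to 96, held 84 of the selected probes (56.0%, against 50.2% of those 10155). The median change of the probes in the upper and in the lower rows was alike in the DHT arrays, at -0.54 and -0.56 from 9 to 12 h.

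The question for the DHT arrays was whether the same probes were also level and then lower with the androgen present. The DHT arrays entered the choice of probes directly only through the spread and the background flag. Those at 12 h, however, lay on slides 5 and 7 beside 12 h controls that the rule used, and no earlier array lay there. The part of slide and scan day shared by the arms in the values below was not tested. The DHT arrays were lower at 12 h for 147 of the 150 probes, where 40.4% of all tested probes of the array were lower. Of the selected probes tested, 37 fell past the threshold, where 3.15% of all tested probes did. The median difference from 9 to 12 h with DHT was -0.55, a 1.46-fold lower level, and single probes ran from -1.62 to 0.25. The fall was over 0.5 for 87 probes and over 1 for 9, while 1708 of the 13714 tested probes fell by at least 0.5. In 78 selected probes the fall was over 0.5 in both arms. The rule chose on the control part of this, so nothing is read from that count.

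Array by array, each probe's level was set against its own mean over the 27 arrays, and the median of these deviations was taken over the 150 probes. With DHT at 6 h the 5 arrays had medians of 0.18, 0.05, 0.08, 0.08 and 0.09. With DHT at 9 h they had 0.18, 0.15, 0.27, 0.24 and 0.35. With DHT at 12 h the 4 arrays had -0.38, -0.23, -0.24 and -0.35. Every DHT array at 12 h lay below 0 and every earlier DHT array above it, so the groups did not overlap. Over all 10155 probes with signal on all arrays, the medians were 0.12, 0.04, 0.02 and 0.02 with DHT at 12 h. On the earlier DHT arrays they ran from -0.16 to 0.04. In controls, which the rule used, the 6 h medians of the 150 probes were 0.12, 0.07, 0.15 and 0.12. Those of 9 h were 0.21, 0.01, 0.23, 0.13 and 0.33, and those of 12 h were -0.55, -0.46, -0.36 and -0.46. Here too all 12 h arrays lay below 0 and all earlier ones above it. As group means, the deviation was -0.46 ± 0.08 (SD, n = 4) in controls at 12 h and -0.30 ± 0.08 (SD, n = 4) with DHT at 12 h. On single arrays at 12 h, between 130 and 136 of the 150 probes lay below their own mean in controls, and between 112 and 126 with DHT. The same count over all probes was not made, so these numbers have no background. Each probe's own mean includes the control arrays that the rule used, so the place of 0 rests in part on the rule.

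The group-means model across all tested probes placed these changes against the rest of the array. Between 9 and 12 h with DHT, limma called 37 of the tested selected probes lower (24.8%) and 0 higher, at an adjusted p under 0.05. The background was 3.15%, or 432 of the 13714 probes tested called lower, with another 1782 called higher. All selected probes were tested but UF_Ppr_AF_101154, which had a spot flag on 1 array. Among the 8146 other tested probes that passed the same signal and spread filters, 3.01% were called lower. Among the 3349 tested probes that were also level in controls between 6 and 9 h but not taken, 36 (1.07%) were called lower. These probes were left out of the selection because their controls fell less or rose, so their share is no independent measure of the background. An unadjusted p under 0.05 was reached by 81 of the selected probes (54.4%), all of them lower at 12 h, where 7.54% of all tested probes were lower and 20.2% higher at that limit.

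The fall was seen against an array whose other probes moved slightly up. Over all tested probes the median change from 9 to 12 h with DHT was 0.12, so that the selected probes stood 0.67 below it. Setting each array to its median in place of its 75th percentile turned the change of all probes to -0.18 and that of the selected probes to -0.85. The distance of 0.67 could not change here, since either scaling takes the same value from every probe of an array. That scaling called 1422 probes of the table lower and 1145 higher, and 94 of the selected probes lower. Quantile normalization gave 626 lower and 1188 higher over the table, and 51 of the selected probes lower. The number of calls thus moved with the scaling, while the distance of the selected probes from the rest was between 0.56 and 0.67 with normexp and the deposited values included.

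The 37 called probes fell by 0.39 to 1.62 with DHT, with a median of -0.77, or 1.70-fold. The tested probes that were not called ran from -1.07 to 0.25 with a median of -0.48. The called probes had a smaller spread within groups (median 0.29 against 0.41) and a brighter signal (median 0.06 against -0.76). Their median fall in controls was 0.64, and that of the others was 0.61. The limma p-value is computed from the size of the fall and the spread within groups. The larger fall and smaller spread of the called probes thus follow from the call itself. In 31 probes (20.7%) every DHT array at 12 h lay below every DHT array at 9 h, where the background was 3.47% of the tested probes.

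From probe to probe, the falls in the 2 arms had a Pearson r of 0.52 across the 150 probes. It is a description across probes, which share the same arrays and are not replicates. The rule kept only control falls of 0.48 or more, so this r depends on the choice of probes and does not measure how the arms agree. The arms may also not be independent of each other. For each of the 14 DHT arrays, the control array of the same time with the most similar deviations from its group mean was sought over 10005 other probes. For 11 DHT arrays this r was between 0.54 and 0.84, and for the other 3 between 0.04 and 0.20. Over the selected probes the same 11 pairs had r from 0.55 to 0.84. Each r is the highest among the controls of that time and has no reference value here, and what the pairs share was not tested. The fall in the DHT arrays can therefore not be taken as an independent repeat of the fall in controls.

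Of the selected probes, UF_Ppr_AF_115283 had the largest fall from 9 to 12 h in both arms. Its control levels were -0.22, 0.52, 0.12 and -0.55 at 6 h, 0.11, -1.19, -0.07, 0.28 and 1.32 at 9 h, then -1.85, -1.14, -1.35 and -1.62 at 12 h. With DHT they were 0.38, -0.75, 0.10, -0.32 and 0.36 at 6 h, 0.06, -0.79, 1.1, 1.13 and 1.40 at 9 h, then -0.96, -1.32, -0.86 and -1.03 at 12 h. All DHT arrays at 12 h were below all those at 6 and 9 h, while in controls the second 9 h array, at -1.19, lay within the 12 h range. The 9 h groups were wide, with an SD of 0.90 in controls and 0.92 with DHT. With DHT it fell by 1.62 from 9 to 12 h (SE 0.41, limma adjusted p = 0.00786, 0.000893 to 0.109 over the alternatives), a 3.08-fold lower level. The call ended with array brightness in the model and without slide 5.

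UF_Ppr_AF_114490 had the smallest p of the selected probes and was among the brightest of those named. Its control levels were 4.21, 3.88, 4.62 and 4.63 at 6 h, 4.57, 3.75, 4.65, 4.65 and 5.00 at 9 h, then 3.12, 3.41, 3.15 and 3.24 at 12 h. With DHT they were 4.64, 4.49, 3.82, 4.30 and 4.83 at 6 h, 4.55, 4.64, 4.68, 5.21 and 5.18 at 9 h, then 3.33, 3.41, 3.80 and 3.74 at 12 h. In each arm the highest 12 h array was below every earlier array of that arm, narrowly so with DHT, where 3.80 at 12 h stood beside 3.82 at 6 h. With DHT it fell by 1.28 from 9 to 12 h (SE 0.23, limma adjusted p = 0.000351, 7.55e-05 to 0.0284 over the alternatives), or 2.43-fold. From 6 to 12 h it fell by 0.85 (SE 0.23, limma adjusted p = 0.0180, 0.00251 to 0.299 over the alternatives), and 7 of the 19 alternatives ended that second call. These were normexp, the deposited values, brightness, and leaving out slide 5, DHT 6 h replicate 5, or DHT 12 h replicate 1 or 2.

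UF_Ppr_AF_114956 had the next largest fall with DHT and lay at the dim end. Its DHT levels were -3.35, -3.63, -4.40, -3.49 and -4.10 at 6 h, -2.81, -3.84, -3.08, -3.12 and -3.60 at 9 h, then -4.11, -4.78, -5.04 and -4.43 at 12 h. Every 12 h array was below every 9 h array, and the highest 12 h array overlapped the 6 h range. In controls its means were -3.64 ± 0.50 (SD, n = 4) at 6 h, -3.63 ± 0.44 (SD, n = 5) at 9 h and -4.61 ± 0.28 (SD, n = 4) at 12 h. With DHT it fell by 1.30 from 9 to 12 h (SE 0.28, limma adjusted p = 0.00194, 0.000230 to 0.0126 over the alternatives). Of the selected probes, 6 were called lower under every one of the 20 settings tried, while the others called differed between settings. These 6 were UF_Ppr_AF_114490, UF_Ppr_AF_114956, UF_Ppr_AF_113001, UF_Ppr_AF_114061, UF_Ppr_AF_117136 and UF_Ppr_AM_119289, the last 4 named after their values were seen. How many of all tested probes were called under every setting was not counted, so this number has no background.

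The cleanest courses were level and then low without overlap in either arm. In 3 selected probes, UF_Ppr_AF_110551, UF_Ppr_AF_113904 and UF_Ppr_AF_107272, every 12 h array of both arms lay below every 6 and 9 h array. They were named after their values were seen, and in 5 of the 13714 tested probes (0.0365%) the same was found. The rule chose the selected probes on the control part of this, so nothing is read from the count. UF_Ppr_AF_110551 stood in controls at 2.83, 3.0, 2.68 and 2.90 at 6 h, 2.92, 3.02, 3.02, 2.88 and 2.70 at 9 h, then 2.03, 2.45, 2.45 and 2.38 at 12 h. With DHT it stood at 2.83, 2.82, 2.89, 2.71 and 2.66 at 6 h, 2.88, 3.06, 2.89, 2.74 and 2.80 at 9 h, then 2.40, 2.18, 2.51 and 2.20 at 12 h. The small spread at 6 and 9 h is what sets this probe apart from UF_Ppr_AF_115283, whose fall was larger. It fell by 0.55 from 9 to 12 h with DHT (SE 0.12, limma adjusted p = 0.00226, up to 0.0816 over the alternatives) and by 0.46 from 6 to 12 h (SE 0.12, limma adjusted p = 0.0128, up to 0.141). Brightness in the model ended both calls, and the second also ended after quantile normalization, with the deposited values, without DHT 12 h replicate 2 and without slide 5.

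UF_Ppr_AF_113904 stood with DHT at 2.12, 2.26, 2.21, 2.22 and 1.96 at 6 h, 2.11, 2.09, 2.15, 1.85 and 2.16 at 9 h, then 1.61, 1.71, 1.69 and 1.61 at 12 h. In controls its 12 h arrays were 1.39, 1.68, 1.43 and 1.72, and the lowest earlier control array was 1.85. Its fall was 0.42 from 9 h (SE 0.12, limma adjusted p = 0.0146, up to 0.140 over the alternatives) and 0.50 from 6 h (SE 0.12, limma adjusted p = 0.00533, up to 0.0576) with DHT, and both calls ended with brightness in the model and without slide 5. UF_Ppr_AF_107272, a dim probe, stood with DHT at -4.11, -4.05, -4.28, -4.21 and -3.44 at 6 h, -4.01, -4.19, -4.21, -3.66 and -3.46 at 9 h, then -4.92, -4.39, -4.42 and -4.58 at 12 h. The gap between its highest 12 h and lowest earlier DHT array was narrow, as in UF_Ppr_AF_114490. It fell by 0.67 from 9 to 12 h with DHT (SE 0.19, limma adjusted p = 0.0178, up to 0.359 over the alternatives), and its difference from 6 h, at -0.55, did not pass (limma adjusted p = 0.0677) but did after median scaling, quantile normalization and with the deposited values. The call from 9 h ended with brightness in the model, with the DHT arrays alone, without slide 5 and without any 1 of DHT 9 h replicates 4 and 5 and DHT 12 h replicate 1.

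Of the 4 probes at the ends of the signal range, 1 passed from 9 to 12 h with DHT. UF_Ppr_AF_106077, with the highest mean signal, differed by -0.34 from 9 to 12 h with DHT (limma adjusted p = 0.392) and UF_Ppr_AF_103035, the next, by -0.36 (limma adjusted p = 0.236). Neither passed in the model as fitted, though both did with brightness in the model, and UF_Ppr_AF_103035 also after median scaling, quantile normalization and normexp. In both the first DHT array at 12 h, at 5.95 and 5.62, was the highest of its group. UF_Ppr_AF_110872, with the lowest mean signal, fell by 0.87 (SE 0.25, limma adjusted p = 0.0159, 0.00228 to 0.159 over the alternatives). Its DHT levels were -4.66, -5.06, -5.49, -4.33 and -5.48 at 9 h and -6.36, -5.47, -5.45 and -6.23 at 12 h, and the ranges overlapped slightly. The call ended with brightness in the model, with the DHT arrays alone, without slide 5 and without any 1 of DHT 9 h replicate 4 and DHT 12 h replicates 1 and 4. UF_Ppr_AF_114919, the next dimmest, is described below.

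The 3 selected probes below were not lower at 12 h with DHT, and in each the DHT mean at 9 h was already below that at 6 h. UF_Ppr_AF_114919 stood with DHT at -6.80, -4.54, -6.02, -6.21 and -5.92 at 9 h and -5.35, -5.87, -5.62 and -5.72 at 12 h, a difference of 0.25 (SE 0.33, limma adjusted p = 0.687). UF_Ppr_AF_114448 differed by 0.12 (SE 0.33, limma adjusted p = 0.866) and UF_Ppr_AF_117120, named after its value was seen, by 0.09 (limma adjusted p = 0.876). For UF_Ppr_AF_114919 and UF_Ppr_AF_114448 the sign turned under median scaling, quantile normalization and normexp. For UF_Ppr_AF_117120 it turned under median scaling, at -0.21, after quantile normalization, and without DHT 9 h replicate 5 or DHT 12 h replicate 3. At the threshold, the DHT differences of the last probes taken, UF_Ppr_AF_105719 and UF_Ppr_AF_108310, were -0.26 and -0.46, and those of the first left out, UF_Ppr_AF_119048 and UF_Ppr_AF_106192, were -0.41 and -0.31. None of the 4 passed in the model as fitted, while under median scaling UF_Ppr_AF_105719, UF_Ppr_AF_108310 and UF_Ppr_AF_106192 did, and the first and last of these also after normexp.

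Compared with 6 h, the fall with DHT was smaller. The median difference from 6 to 12 h was -0.41, with 146 of 150 probes lower, where 42.3% of all tested probes were lower. limma called 10 of the selected probes tested lower (6.71%) and 0 higher. The background was 1.12% of the tested probes, 153 lower, with 1325 called higher. With median scaling the table held 1202 lower and 828 higher, and 60 of the selected probes were called. An unadjusted p under 0.05 was reached by 42 selected probes (28.2%), all lower, where 5.46% of all tested probes were lower and 17.3% higher. Of the 10 called, 7 were also called from 9 to 12 h. In 17 probes every DHT array at 12 h lay below every one at 6 h, where the background was 2.38%, and in 8 probes (5.33%) below every one at 6 and 9 h, where it was 0.489%. The 4 probes that were not lower than at 6 h, named after their values were seen, were UF_Ppr_AF_114852 at 0.32, UF_Ppr_AF_110657 at 0.29, UF_Ppr_AF_108073 at 0.03 and UF_Ppr_AF_107937 at 0.02. Each of these 4 signs turned under at least 1 alternative, to -0.39 for UF_Ppr_AF_114852 after normexp.

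Between 6 and 9 h with DHT, where the scan day was shared and the slides in part, the selected probes stood slightly higher at 9 h. Their median difference was 0.17, with 114 higher and 36 lower. The median of all tested probes was -0.04, with 54.3% of them lower. A difference within 0.2 either way was found for 79 selected probes, where 38.4% of all tested probes had one. It was above 0.2 for 64 selected probes and below -0.2 for 7. limma called 0 of those tested, where the background was 0.795% of the tested probes in either direction, or 109. That count ran from 14, without DHT 6 h replicate 2 or DHT 9 h replicate 4, to 229, without DHT 9 h replicate 2, and was 20 with slide as a fixed block and 6 with the DHT arrays alone. An unadjusted p under 0.05 was reached by 7 selected probes (4.7%), all higher, where 6.87% of all tested probes were higher and 7.96% lower. The median within slide 2 was 0.07, where all tested probes had 0.05. Within slide 3 it was 0.17, where all tested probes had -0.035. The course that named the selection, level to 9 h and then lower, was met with DHT by 39 of the 150 probes. The limits were the same 0.2 and a fall over 0.5. How many of all tested probes met both limits was not counted, so this number has no background. In the other direction, the whole rule applied to the DHT arrays chose 150 probes of which 43 (28.7% of each list) were among those chosen on the controls. How many probes could enter both lists was not counted, so this overlap has no background either. Arrays of both arms at 12 h also shared slides.

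The study's own question was the effect of DHT at each time. For the selected probes the median difference of DHT from control was -0.03 at 6 h, 0.07 at 9 h and 0.15 at 12 h, and over all tested probes it was -0.01, -0.02 and -0.02. At 12 h, 109 of the 150 probes had a higher mean with DHT than in controls, as did 6465 of the 13714 tested probes. The control means at 9 and 12 h chose the probes, so these differences are a description and not a test. limma called 0 of 13714 probes at each time, a background of 0%. The model takes the arrays of both arms as separate samples, and the part of their likeness in this count was not tested. Unadjusted p values under 0.05 were reached over the table by 59 probes at 6 h (0.43%), 361 at 9 h (2.63%) and 381 at 12 h (2.78%). These shares are smaller than the 0.05 that separate samples without any difference would give, and why was not tested. The count of 0 called therefore does not show that DHT had no effect. At 9 h the share ran from 0.839%, without control 9 h replicate 2, to 10.8%, without DHT 9 h replicate 2. Among the selected probes p values under 0.05 were reached by 0 at 6 h and 6 at 9 h, 3 of them lower with DHT (2.01% of those tested) and 3 higher (2.01%). At 12 h they were reached by 2, both higher with DHT (1.34%). The rule used the control means that enter these p values, so nothing is read from the counts of selected probes. At 9 h the median was 0.011 without control 9 h replicate 2, and within slides 1 to 4 it was 0.11, -0.06, 0.17 and 0.08. On the slides that held both arms at 12 h, the median was 0.21 on slide 5 and 0.09 on slide 7. Without the first control array at 12 h, the dimmest control, it was 0.06, and without slide 5 it was 0.08.

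Single probes showed how 1 array can set such a difference. UF_Ppr_AF_110786 had the highest DHT minus control difference at 12 h, 0.97, and the rule took it for a control fall of 1.08. Its control levels at 12 h were -0.43, -0.72, -0.42 and -4.96, while those at 9 h were -0.51, -0.58, -0.63, -0.47 and -0.56. The fourth array alone was low, and the other 3 lay in or near the 9 h range. With DHT it stood at -0.28, -0.59, -1.36 and -0.41 at 12 h, a difference from 9 h of -0.22 (SE 0.57, limma adjusted p = 0.858). UF_Ppr_AF_105465 differed between the arms at 12 h by 0.66, and the largest differences the other way were -0.41 for UF_Ppr_AF_116726 and -0.32 for UF_Ppr_AM_119556. None of these passed in either comparison in the model as fitted. From 9 to 12 h with DHT, UF_Ppr_AF_116726 and UF_Ppr_AM_119556 were called lower after median scaling, quantile normalization and normexp and with the deposited values, and UF_Ppr_AF_116726 also without DHT 9 h replicate 3.

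Slide and array brightness were set beside the fall. Against the 9 h mean of its own arm, the median of the selected probes was -0.70 on slide 5 for the control array, with other probes at 0.18, and -0.60 for the 2 DHT arrays, with others at 0.11. Slide 6 held 1 control array, at -0.59. On slide 7 it was -0.59 for the 2 control arrays and -0.57 for the 2 DHT arrays, with other probes at 0.12 and 0.08. The control values are a description, as the rule used those arrays. The DHT medians of the dim slide and of slide 7 differed by less than the spread between arrays. The slide 5 arrays had 75th percentiles of 921 to 1222, and the arrays of slides 6 and 7 had 2028 to 3418, the upper end of which lies within the range of the 6 and 9 h arrays. The DHT arrays at 12 h with percentiles of 2819 and 2918 had median deviations of -0.24 and -0.35. The earlier DHT arrays with percentiles of 2581 and 2995 had 0.05 and 0.18.

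Within the model, log2 brightness as a covariate left the median fall from 9 to 12 h with DHT at -0.57 and 138 probes lower, but the called probes numbered 17, of which 7 were among the 37, and 1.58% of all tested probes were called lower. Slide as a random block left 24, all among the 37, and 2.18% of all tested probes, with a correlation within slides of 0.14. Without slide 5, an alternative chosen after the data were seen, the median was -0.57 and 142 probes were lower, and with 2 DHT arrays left at 12 h, 12 probes were called, 10 of them among the 37, and 1.04% of all tested probes. In each of these fits the median fall stayed near that of all arrays while the number passing dropped, both among the selected probes and over the table. The part of slide and scan day in the fall was not tested, since no slide holds a 12 h array together with an earlier one.

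The change of other probes depended on signal, and the selected probes departed from it at every level. By mean signal from -6 to -4, 17 selected probes had a median change of -0.73 from 9 to 12 h with DHT, and 1388 other probes passing the same filters had 0.49. From -4 to -2, 31 selected probes had -0.58 and others 0.33. From -2 to 0, 39 had -0.57 and others 0.03, and above 0, 63 had -0.48 and others -0.04. The distance between the selected and the other probes was thus widest among dim probes, where the other probes rose, and narrower among bright ones. In controls the selected probes had -0.68 and others 0.45 from -6 to -4, and -0.58 and 0.02 above 0. There the rule asked for a fall at every level, so the control distance follows from the choice of probes. How far the DHT distance shares this through the 12 h slides was not tested.

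Which probes are chosen depended on single arrays and on the scaling. The same rule with median scaling kept 129 of the 150 (86.0%), with quantile normalization 90 and with the deposited values 89. Leaving out 1 control array kept between 85 (56.7%) and 119 (79.3%), the fewest without the fifth control array at 9 h. The lists chosen with and without a single array thus shared most but not all of their probes.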

How the data were processed

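Each of 27 arrays held Cy3-labelled total RNA of 1 ovary explant sample. The authors read the scans with Agilent Feature Extraction 10.7.1.1, per the file headers, and its files hold a background-subtracted processed signal as a linear intensity, beside the median intensity of spot and background. Per the file headers, other columns hold flags of 0 or 1. The table deposited by the authors holds log2 values of unstated scaling and centring. Its columns correlated with the log2 processed signal of their own arrays at r of at least 0.9976 and had medians from 8.13 to 8.20. Direction is that of the signal.

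Each array held 15744 spots, 536 of them controls. Levels were the log2 processed signal minus that of the array's 75th percentile. A spot flag on any array removed 169 probes, and a minimum of 4 arrays well above background removed 1333, partly the same ones, so that 13714 were tested. Between 11241 and 13672 probes were well above background on an array. One model of 6 group means over all arrays was fitted with limma 3.58.1 (R 4.3.3, with version 1.17.8 of data.table), with Benjamini-Hochberg adjustment over all tested probes of each contrast and a threshold of 0.05. The model was tested on simulated data. Summaries were made with Python 3.11.15, numpy 2.4.6 and pandas 2.3.3.

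The selected probes and all lists and tests were chosen with earlier results of these data known. Probes named by rule are the 2 with the largest control fall, the last 2 taken and the first 2 left out at the threshold, the 2 with the largest and the 2 with the smallest fall with DHT, the 2 brightest and 2 dimmest, and the 2 with the largest DHT minus control difference at 12 h each way. Gene lists and cell type markers were not run, since probes have no gene names here. No sequences were used. Alternatives were array median scaling, quantile normalization, normexp (offset 50) with quantile normalization, the deposited values, the dim probes kept, a stricter filter that asks for signal well above background on every array, slide as a random or fixed block, brightness as a covariate, the DHT arrays alone and leaving out each array. Normexp used the median signal in place of the planned mean signal, which the files used here do not hold.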

Additional observations from a re-analysis of the deposited data

Results flagged for a closer look

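In the named probes, 5 single values stood apart from the rest of their group of 4 or 5 arrays by Dixon's criterion, out of 102 groups of values examined, where chance gives about 1 in 20, or 5.1. UF_Ppr_AF_110786 was at -4.96 on control 12 h replicate 4, the lowest of a group whose others lay between -0.72 and -0.42. UF_Ppr_AF_105719 was at -2.77 on DHT 9 h replicate 2, the lowest of its group. UF_Ppr_AF_103035 was at 5.78 on DHT 6 h replicate 2 and at 5.07 on control 12 h replicate 1, the highest in both groups. UF_Ppr_AF_116726 was at -3.47 on control 6 h replicate 3, the highest of its group.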

How the results depend on the processing

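The median fall of the selected probes from 9 to 12 h with DHT was -0.85 with array median scaling and -0.65 after quantile normalization, and from 6 to 12 h it was -0.74 and -0.50. From 9 to 12 h the called probes numbered 94 with median scaling, 24 with slide as a random block, 17 with brightness as a covariate and 12 without slide 5, an alternative chosen after the data were seen, where all tested probes gave 1422, 299, 217 and 142 (432 in the model as reported). Leaving out 1 array gave 22 to 43 calls, where all tested probes gave 269 to 503, and medians from -0.59 to -0.51. Without DHT 9 h replicate 4 there were 23, where all tested probes gave 269. Without DHT 12 h replicate 1 there were 22, where all tested probes gave 311. From 6 to 12 h the called selected probes numbered 60 with median scaling, 20 after quantile normalization and 26 after normexp. They numbered 16 in the deposited table, 5 with a random slide block, 5 with brightness and 5 without slide 5. In the same order, all tested probes gave 1202, 197, 249, 182, 69, 108 and 46 (153 as reported). Leaving out 1 array gave 5 to 12 calls, where all tested probes gave 90 to 134, and medians from -0.43 to -0.37. Among these fits there were 6 calls without DHT 6 h replicate 5, and 5, 6 and 6 without DHT 12 h replicates 1, 2 and 3. Over all tested probes, quantile normalization gave 197 lower and 809 higher from 6 to 12 h and 41 lower and 49 higher from 6 to 9 h, against 64 and 45 with the main scaling. The DHT minus control median at 12 h ran from 0.059, without control 12 h replicate 1, to 0.18 when 1 array was left out. At 6 h it was 0.02 with slide as a fixed block. No alternative called a selected probe for DHT or between 6 and 9 h. For DHT against control, no alternative called any other tested probe either. Between 6 and 9 h with DHT, all tested probes gave from 6 calls, with the DHT arrays alone, to 229, without DHT 9 h replicate 2.

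The sign of the change from 9 to 12 h with DHT turned for 4 of the probes named by rule, none of which passed the threshold in the model as reported. UF_Ppr_AF_119048 was at 0.26 with brightness as a covariate and 0.018 without slide 5. UF_Ppr_AF_114919 was at -0.053 with median scaling, -0.15 after quantile normalization, -0.048 after normexp and -0.15 with the deposited values. UF_Ppr_AF_114448 was at -0.19, -0.024 and -0.075 under the first 3 of these, and between -0.10, without DHT 9 h replicate 4, and 0.34 when 1 array was left out. UF_Ppr_AF_110786 ran from -0.34 to 0.016 when 1 array was left out, the latter without DHT 12 h replicate 3. Among the probes named after their values were seen, UF_Ppr_AF_117120 ran from -0.21 to 0.60, UF_Ppr_AF_114852 from -0.67 to 0.075, UF_Ppr_AF_107937 from -0.90 to 0.054 and UF_Ppr_AF_108073 from -0.50 to 0.021. The cause was not tested. Of the recomputed values of the main comparisons, 204 stayed within the spread between arrays or within 1.5 times the count, and 22 moved. The 204 include counts that were 0 in every fit. They also include medians that a change of probe filter or the use of the DHT arrays alone cannot alter. The tally is therefore no measure of stability.

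No paired analysis was possible because the labels give no replicate numbers and do not say which explants belong together. DHT and control arrays that resemble each other were counted as separate samples, and the effect on the p-values was not tested. With slide as a fixed block 0 of the 13714 tested probes were called for DHT, the selected ones included. Limits are the 4 or 5 arrays a group, the slides and scan days of 12 h that no earlier array shares, and the low signal of slide 5.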
